A study of Drosophila melanogaster with 25 samples.

Results

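RpS3* is an allele of the gene for ribosomal protein S3, and RpS3* heterozygous wing discs were compared here with wild-type (WT) discs across all genes. The comparison used 10 of the 19 libraries in the series, chosen by their labels: both RpS3* libraries and all 8 WT libraries. RpS3* discs were FRT82B, RpS3*/+, so they carried 1 mutant copy of RpS3 on a chromosome with the recombination site FRT82B. WT discs came from a pair of stocks. WT1 to WT4, WT7 and WT8 were yw, a common laboratory background, and WT5 and WT6 carried FRT82 and ubi-GFP, a ubiquitous fluorescent marker. Where another mutant is set beside RpS3*, it is FRT82B, RpS3[Plac92], ubi-GFP/+ (a second RpS3 allele, called RpS3[Plac92] below), FRT42D, M(2)53[1]/+ (labelled RpS15) or homozygous mahj in hs-FLP, stauGFP/+ and FRT42D flies (labelled mahj), each with 2 libraries. The study asked what cells destined to lose in cell competition express before they meet fitter neighbours, so whole discs of a single genotype were sequenced. Each sample pooled 50 discs from wandering larvae of the last instar raised at 25 °C.

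Wing discs are the larval epithelial sacs that form the adult wings. Flies that lack 1 copy of a ribosomal protein gene are often viable but slow to develop and are known as Minutes. Cells of loser Minutes, RpS3 mutants among them, are eliminated from mosaic discs by WT neighbours in the process called cell competition. The paper describes the RpS15 mutant as a Minute whose cells are not losers beside WT cells. Slow ribosome assembly and translational stress in loser Minute cells are known to induce Xrp1, a bZIP transcription factor. Stress kinase (JNK), JAK/STAT, Toll and oxidative stress signalling have all been connected to the loser state.

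The values were FPKM, fragment counts scaled to the length of each transcript and the size of each library, and all differences were taken on log2(FPKM + 1), a scale that understates the change of weakly expressed genes. The implied depth was 16131350 and 15717300 reads in RpS3* libraries, against 12120450 to 16975200 in WT. Spearman's correlation between the RpS3* libraries was 0.977, against 0.962 to 0.977 between pairs of WT libraries, with 0.956 to 0.972 between RpS3* and WT. A gene is said to have changed where the limma Benjamini-Hochberg adjusted p was under 0.1. Nothing in the labels says that libraries came from separate cultures, so p-values measure the spread between these samples. In whole discs, fewer cells of a type and less RNA per cell cannot be told apart. The wing disc genes vg and nub were expressed in all libraries: none of the 5 tested wing disc markers passed the test, and their summed level was 291 and 279 FPKM in RpS3* libraries, against 253 to 300 FPKM in WT.

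RpS3 itself, at 3R:23358812-23360207 in the BDGP6.54 annotation, was at 1262 and 1296 FPKM in RpS3* discs, against a lowest, median and highest value of 2057, 2355 and 3023 FPKM in WT. Both RpS3* libraries lay below every WT library. The ratio of the means was 0.521, and the log2 fold change was -0.93 (SE 0.13, limma adjusted p = 0.000428). Few other ribosomal protein genes changed. Of the 34 small-subunit genes tested (36 in the files), 3 fell and 0 rose, with a median log2 fold change of 0.04, and of the 44 large-subunit genes tested (45 in the files), 1 fell and 0 rose, with a median of 0.08. RpS27A, which encodes a fusion of ubiquitin and a small-subunit protein, fell to 2885 and 2962 FPKM in RpS3* discs, against 3859, 4190 and 5527 FPKM in WT (lowest, median and highest, the order used for WT from here on). RpS9 (log2 fold change -0.37, limma adjusted p = 0.0995) and RpL15 (-0.28, limma adjusted p = 0.0631) were the other ribosomal protein genes that fell. RpS27A, RpS9 and RpL15 each lost the call with either RpS3* library left out. RpS15 had a log2 fold change of -0.05 and did not pass the test. The ribosomal protein counts depended on the WT libraries used: with WT6 and WT7 left out 6 small-subunit and 13 large-subunit genes rose, and with WT1 and WT2 as the only WT libraries 16 and 29 did, while RpS3 fell in each case.

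Of 8067 genes tested, 1840 (22.8%) changed in RpS3* discs. Of these, 1329 rose (16.5% of the genes tested) and 511 fell (6.33%). Rises were also the larger changes: 208 genes rose and 71 fell by at least 1 on the log2 scale, 56 rose and 6 fell by at least 2, and 18 rose and 0 fell by at least 3. After rescaling by the median of ratios 960 genes rose and 724 fell (57.0% of the changes were rises, against 72.2% as deposited). The median over all genes tested was 0.07, and all list medians below are to be read beside it. List counts are to be read beside the shares of 16.5% and 6.33%. Both RpS3* libraries lay above every WT library in 1524 genes (18.9%) and below every WT library in 528 genes (6.55%). Because a gene needed 1 FPKM in 2 libraries to be tested, 92 genes entered through the RpS3* libraries, having 1 FPKM in fewer than 2 WT libraries, and 62 of these are among the rises. With RpS3* replicate 1 left out 583 genes changed, and with replicate 2 left out 304 did. Leaving out WT7 gave 2904 changed genes, and leaving out WT3 gave 330 falls.

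**Figure D1:**
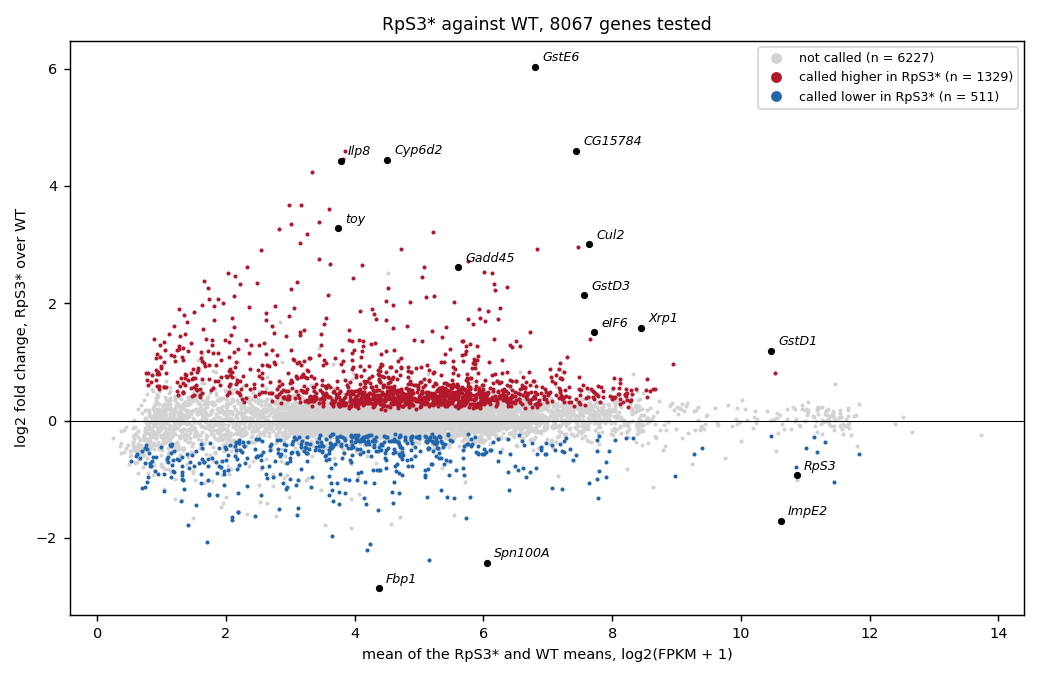
Log2 fold change of RpS3* over WT (y axis) against the mean level on the log2(FPKM + 1) scale (x axis) for 8067 genes, with 1329 rises in red, 511 falls in blue and named genes in black. The rises reach a log2 fold change of 6.03 (GstE6), and RpS3 itself lies at -0.93 among abundant transcripts.

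Genes of the integrated stress response, which lowers translation and induces stress transcription factors, rose in part. Of 13 members tested (15 in the files), 5 rose and 0 fell, with a median of 0.23, and 3 rose with either RpS3* library left out. Xrp1 was at 511 and 538 FPKM in RpS3* discs, against 150, 176 and 207 FPKM in WT. All RpS3* values were far above the WT range, a 3.0-fold ratio of the means, with a log2 fold change of 1.59 (SE 0.11, limma adjusted p = 1.2e-06). Irbp18, which encodes the bZIP partner of Xrp1, was at 112 and 117 FPKM in RpS3* discs, against 30.04, 33.9 and 39.7 FPKM in WT, and rose by 1.74 (SE 0.10, limma adjusted p = 1.98e-07). PEK, the kinase PERK that phosphorylates eIF2alpha, was at 43.4 and 45.8 FPKM in RpS3* discs, against 29.1, 30.1 and 33.2 FPKM in WT (log2 fold change 0.52, limma adjusted p = 0.000914). The groups did not overlap for PEK either, but the difference was smaller. The rise was smaller still for trbl, a pseudokinase gene (0.44, limma adjusted p = 0.0464), and for PPP1R15, the phosphatase subunit that reverses eIF2alpha phosphorylation (0.33, limma adjusted p = 0.0255). The ATF4 gene crc overlapped between the groups, with 695 and 672 FPKM in RpS3* discs, against 597, 734 and 789 FPKM in WT, and did not pass the test (-0.06, limma adjusted p = 0.761). None of the 16 genes tested for the unfolded protein response of the endoplasmic reticulum passed the test, and their median was -0.02.

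**Figure D2:**
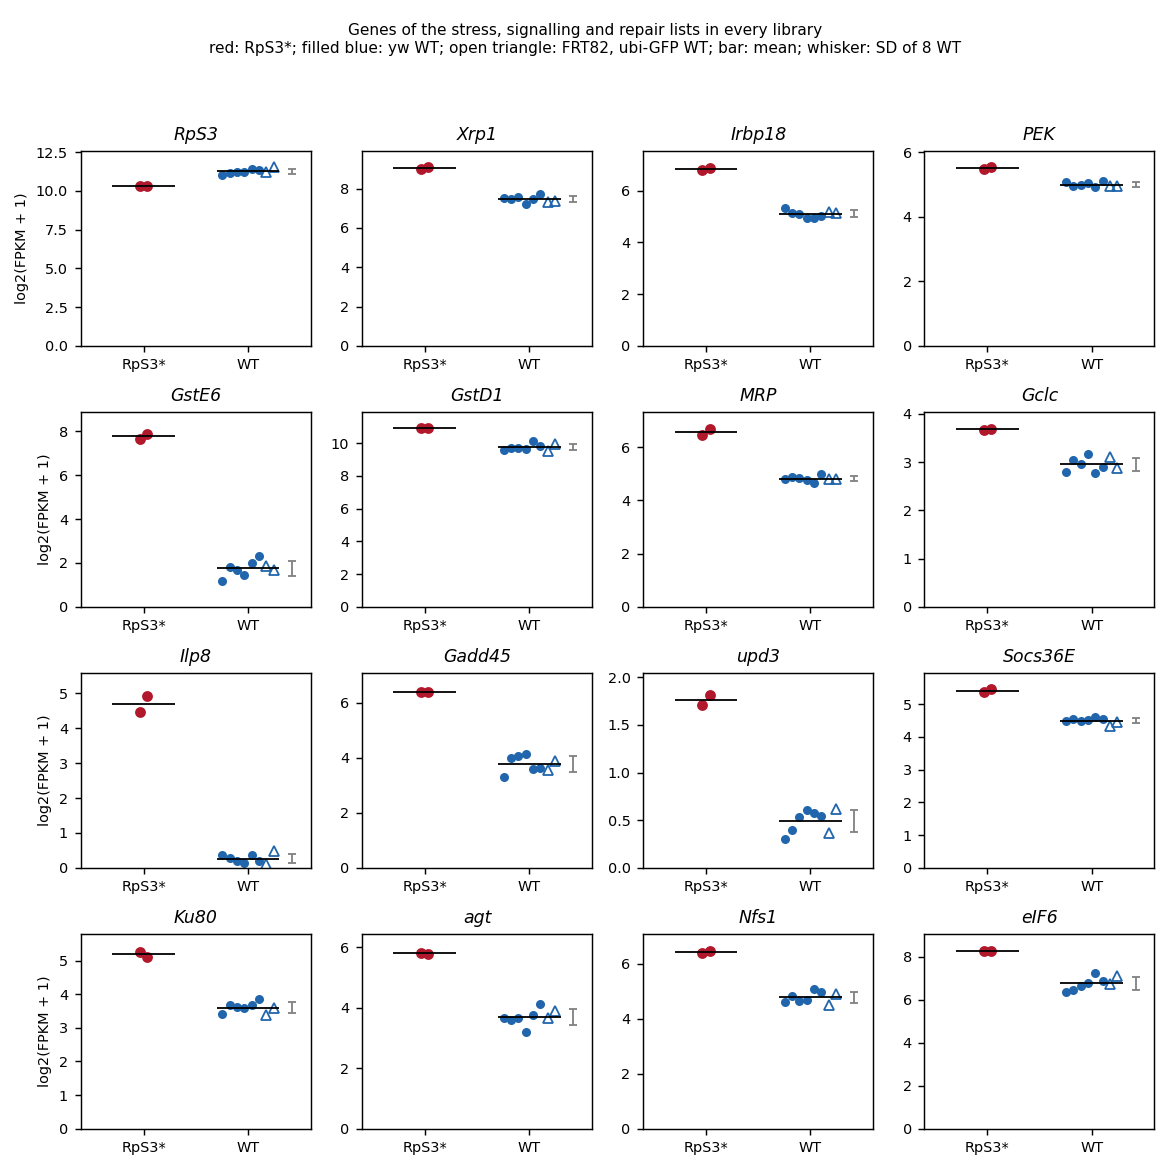
Level of 16 genes in every library on the log2(FPKM + 1) scale (y axis), with RpS3* in red on the left and WT in blue on the right, filled for yw and open for FRT82, ubi-GFP; bars are means and whiskers the SD of 8 WT libraries. RpS3 lies below the WT range in both RpS3* libraries, and the other 15 genes lie above it in both.

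Glutathione S-transferases, which conjugate glutathione to toxic compounds, included the gene with the largest rise of all. Of 26 genes tested (35 in the files), 15 rose and 1 fell, and the median was 0.67. GstE6 was at 203 and 236 FPKM in RpS3* discs, against 1.28, 2.36 and 3.97 FPKM in WT. The RpS3* libraries were thus far outside the WT range, with an 89.8-fold ratio of the means and a log2 fold change of 6.03 (SE 0.22, limma adjusted p = 2.05e-09). In the same epsilon class, GstE5 was at 40.4 and 50.4 FPKM in RpS3* discs, against 3.77, 4.63 and 7.85 FPKM in WT (2.93, limma adjusted p = 3.04e-06), and GstE7 rose by 3.03. Of the 9 epsilon genes tested, 6 rose. All 7 delta genes tested (11 in the files) rose, GstD5 having entered through the RpS3* libraries, and 5 rose without RpS3* replicate 1 and 4 without replicate 2. GstD1, the most abundant of them, was at 1957 and 1965 FPKM in RpS3* discs, against 748, 817 and 1120 FPKM in WT (1.19, SE 0.14, limma adjusted p = 0.000105). GstD3 was at 295 and 315 FPKM in RpS3* discs, against 38.5, 68.6 and 104 FPKM in WT (2.14, limma adjusted p = 0.000243). The delta and epsilon lists were split off after the values were seen, and members of each class lie side by side and are similar in sequence, so reads may be divided between copies.

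The CncC pathway controls many antioxidant and detoxification enzymes. Of 25 genes tested (29 in the files), 8 rose and 1 fell, with a median of 0.20, and 5 rose without RpS3* replicate 1 and 4 without replicate 2. MRP, an export pump for glutathione conjugates, was at 86.3 and 101 FPKM in RpS3* discs, against 24.3, 27.2 and 30.7 FPKM in WT (1.74, SE 0.09, limma adjusted p = 7.27e-08). Gclc, the catalytic subunit of the first enzyme of glutathione synthesis, was at 11.7 and 11.9 FPKM in RpS3* discs, against 5.89, 6.61 and 7.93 FPKM in WT (0.72, limma adjusted p = 0.00117). Neither gene overlapped between the groups. The peroxiredoxin gene Prx2 rose by 0.96, the NADPH-producing malic enzyme gene Men by 0.92 and the thioredoxin reductase gene Trxr1 by 0.59. Trxr1 overlaps sni on the opposite strand, which also rose by 0.59, and the reads of both may not be separable. The catalase gene Cat fell by 0.53 (limma adjusted p = 0.0676). The transcript of cnc itself did not pass the test, with 26.4 and 27.9 FPKM in RpS3* discs, against 18.3, 29.9 and 33.9 FPKM in WT. Among the cytochrome P450 genes, 9 of the 20 tested (79 in the files) rose and 2 fell, and without RpS3* replicate 1 or replicate 2 the rises numbered 3 and 5. Cyp6d2 was at 41.7 and 43.1 FPKM in RpS3* discs, against 0.459, 0.950 and 1.90 FPKM in WT (4.45, limma adjusted p = 4.61e-08). It overlaps nsr on the opposite strand, which rose as well, and since use of strand in counting is not stated the reads of both cannot be told apart. Of 9 UDP-glycosyltransferase genes tested (35 in the files), 3 rose and 1 fell, 1 of the rises (Ugt49C1) having entered through the RpS3* libraries. The largest rise was that of Ugt302K1 (2.02), whose call was lost with either RpS3* library left out, when 1 gene of the list rose.

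JNK signalling genes rose in a subset. Of 24 tested (24 in the files), 8 rose and 0 fell, with a median of 0.12, and 2 of the rises entered through the RpS3* libraries. Ilp8 encodes a relaxin-like hormone that delays pupariation when discs are damaged. It was at 21.2 and 29.4 FPKM in RpS3* discs, against 0.0747, 0.183 and 0.408 FPKM in WT, so it was barely detected in any WT library (4.43, SE 0.16, limma adjusted p = 2.05e-09). Gadd45, an activator of the kinases upstream of JNK, was at 82.7 and 83.02 FPKM in RpS3* discs, against 8.82, 12.6 and 16.4 FPKM in WT (2.62, SE 0.18, limma adjusted p = 1.2e-06). Traf4, an adaptor upstream of JNK, was at 21.8 and 24.5 FPKM in RpS3* discs, against 7.97, 9.90 and 10.4 FPKM in WT (1.19, limma adjusted p = 5.81e-06). For each of these genes the groups were fully separated. The JNK target genes Ets21C (2.06 and 2.72 FPKM in RpS3* discs, against 0.274, 0.678 and 1.07 FPKM in WT) and scaf (1.07) rose, as did the pro-apoptotic gene rpr, at 35.6 and 42.1 FPKM in RpS3* discs, against 14.7, 21.5 and 25.3 FPKM in WT (0.89, limma adjusted p = 0.004). The JNK phosphatase gene puc was at 18.9 and 18.9 FPKM in RpS3* discs, above the WT values of 10.7, 15.6 and 17.8 FPKM, but did not pass the test (0.31, limma adjusted p = 0.151). Of the 11 apoptosis genes tested, 1 rose, which was rpr. The number of JNK genes that rose was 5 without RpS3* replicate 1 and 2 without replicate 2.

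The JAK/STAT pathway carries signals of the Unpaired cytokines through a STAT factor. Of 10 genes tested (12 in the files), 6 rose and 1 fell, with a median of 0.61. Both ligand genes that were tested rose. The cytokine gene upd3 was at 2.26 and 2.52 FPKM in RpS3* discs, against 0.232, 0.452 and 0.531 FPKM in WT (1.27, SE 0.15, limma adjusted p = 0.000105). For upd1 the values were 6.747 and 7.999 FPKM in RpS3* discs, against 2.67, 3.39 and 3.88 FPKM in WT (0.93, SE 0.13, limma adjusted p = 0.000398). Socs36E, a target gene and feedback inhibitor, was at 40.3 and 42.8 FPKM in RpS3* discs, against 19.3, 21.6 and 23.2 FPKM in WT (0.91, SE 0.08, limma adjusted p = 7.36e-06). None of the groups overlapped, although upd3 stayed low in absolute terms and entered the test through the RpS3* libraries. The transcription factor gene chinmo rose by 1.17, and zfh1, which also marks disc myoblasts, fell by 0.57. Of the JAK/STAT list, 4 genes rose without RpS3* replicate 1 and 2 without replicate 2.

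Toll signalling acts in immunity, and the paper describes it as switched on downstream of cell competition and leading to the death of losers. Of 17 genes tested (18 in the files), 7 rose and 1 fell, with a median of 0.26. Dif, an NF-kappaB factor of the pathway, was at 21.0 and 29.7 FPKM in RpS3* discs, against 1.67, 4.12 and 5.69 FPKM in WT (2.43, limma adjusted p = 5.08e-05). The serine protease gene grass was at 25.8 and 24.7 FPKM in RpS3* discs, against 3.95, 5.78 and 13.1 FPKM in WT (1.87, limma adjusted p = 0.00299). Another protease gene of the cascade, SPE, which encodes the enzyme that cleaves the Toll ligand, went the other way, at 2.01 and 1.61 FPKM in RpS3* discs, against 3.50, 3.93 and 4.70 FPKM in WT (-0.85, limma adjusted p = 0.00053). The protease gene spirit, which also acts in the cascade but was not in the list, fell further (-1.70). The recognition protein gene PGRP-SA (1.28) was among the rises, as was the protease gene psh (1.56), which entered the test through the RpS3* libraries.

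DNA damage response genes rose in most of the members tested. Of 27 genes tested (27 in the files), 17 rose and 1 fell, and the median was 0.39. The methyltransferase gene agt, which repairs alkylated guanine, was at 55.5 and 53.5 FPKM in RpS3* discs, against 8.09, 11.7 and 16.4 FPKM in WT (2.10, SE 0.17, limma adjusted p = 4.09e-06). Irbp, which encodes the Ku70 end-joining subunit, was at 27.7 and 31.6 FPKM in RpS3* discs, against 5.83, 7.58 and 9.11 FPKM in WT (1.82, limma adjusted p = 1.24e-06). Its partner Ku80 was at 37.4 and 33.3 FPKM in RpS3* discs, against 9.47, 11.2 and 13.6 FPKM in WT (1.58, SE 0.12, limma adjusted p = 1.47e-06). Both subunits of the Ku complex and the nuclease gene mre11 (1.35) had fully separated groups, while p53 rose by 0.34 (limma adjusted p = 0.0807). Without RpS3* replicate 1 the list had 7 rises, and without replicate 2 it had 8.

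Genes of ribosome and mitochondrial function rose by smaller amounts in many members at once. Of 27 ribosome biogenesis genes tested, 21 rose and 0 fell (median 0.37), with nclb at 104 and 98.0 FPKM in RpS3* discs, against 55.4, 65.1 and 88.9 FPKM in WT (0.59, limma adjusted p = 0.0123). Of 71 mitochondrial ribosomal protein genes tested, 21 rose and 0 fell (median 0.33), and mRpL42 rose by 0.80. Of 63 oxidative phosphorylation genes tested (80 in the files), 29 rose and 0 fell (median 0.40), with COX4, a subunit of complex IV, at 344 and 339 FPKM in RpS3* discs, against 160, 206 and 279 FPKM in WT (0.71, limma adjusted p = 0.015). Among aminoacyl-tRNA synthetase genes 14 of 32 rose (median 0.27), and among cell cycle and replication genes 14 of 37 rose (median 0.27, 0 falls in both lists), including RnrL, the large subunit of ribonucleotide reductase (0.88), and PCNA (0.53). These counts depended on the libraries used. With RpS3* replicate 1 left out, 1 ribosome biogenesis, 2 mitochondrial ribosomal protein, 2 oxidative phosphorylation, 0 synthetase and 1 cell cycle genes rose, and with replicate 2 left out, 1, 0, 0, 1 and 1 did, whereas leaving out WT7 gave 52 mitochondrial ribosomal protein and 46 oxidative phosphorylation genes. After rescaling by the median of ratios 6 synthetase genes rose. The mitochondrial genome's own transcripts varied widely, with a summed level of 9396 and 17561 FPKM in RpS3* libraries, against 2204, 21702 and 39414 FPKM in WT, and 0 of 13 changed.

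Translation factors lay on both sides, with 6 of 41 tested rising (14.6%) and 4 falling (9.76%; 50 in the files, median 0.04). These shares were near those of all genes tested, 16.5% and 6.33%. Both counts were smaller with either RpS3* library left out. The largest rise was that of eIF6, an anti-association factor needed for large-subunit maturation, at 306 and 310 FPKM in RpS3* discs, against 82.2, 106 and 152 FPKM in WT (1.50, SE 0.19, limma adjusted p = 0.000204). The largest fall was that of eEF1alpha2, an elongation factor gene, at 29.3 and 17.8 FPKM in RpS3* discs, against 36.4, 53.8 and 92.1 FPKM in WT (-1.30, limma adjusted p = 0.0274). Proteasome, autophagy and Hippo pathway genes each had 1 rise and 0 falls among 34, 20 and 18 tested, although 14 proteasome genes rose with WT7 left out and, after rescaling by the median of ratios, the Hippo list had 0 rises and 2 falls. In the autophagy list the rise was that of ref(2)P, the p62 homologue, at 75.0 and 68.5 FPKM in RpS3* discs, against 41.9, 44.6 and 47.4 FPKM in WT (0.67, limma adjusted p = 0.000105). It overlaps CG10337 on the opposite strand, which also rose (1.47), so the reads of both cannot be told apart.

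**Figure D3:**
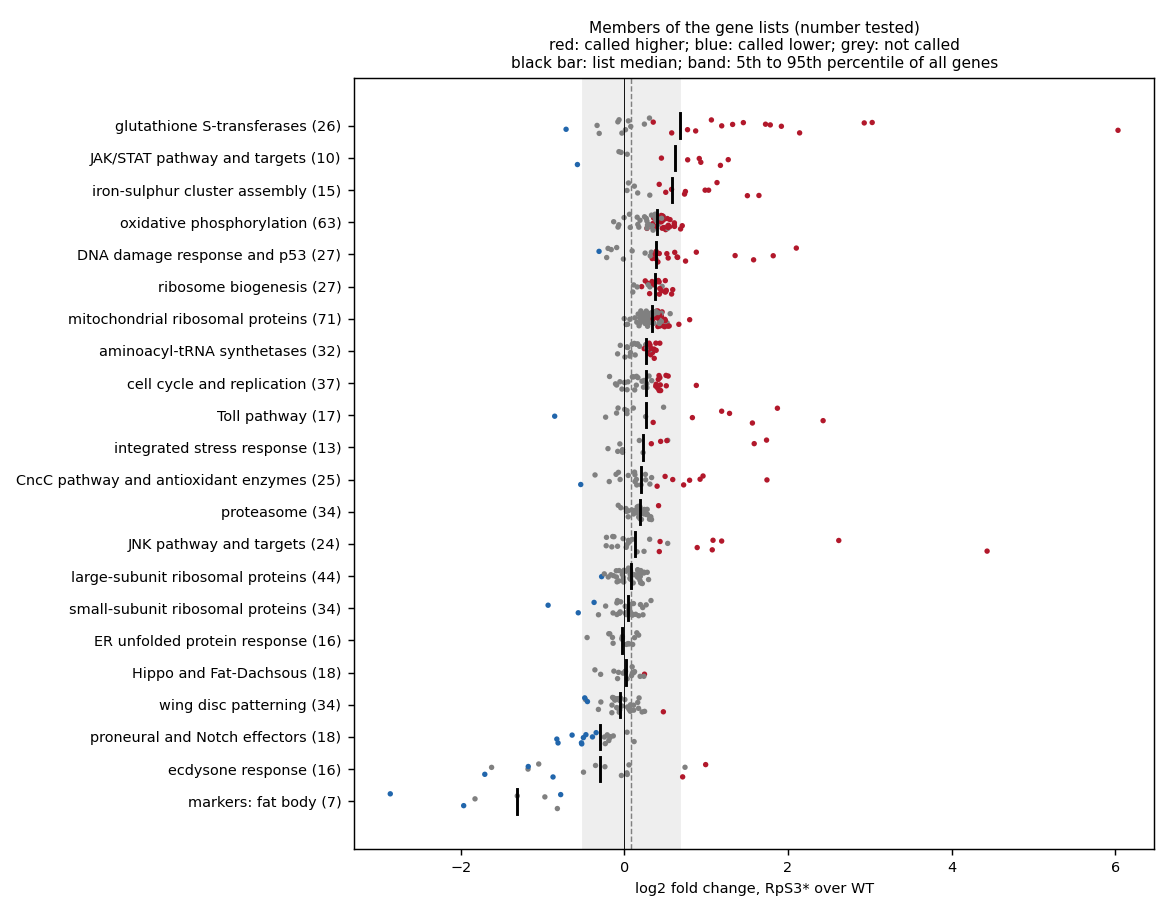
Log2 fold change of RpS3* over WT (x axis) for every tested member of 22 gene lists (y axis, number tested in brackets), with rises red, falls blue and genes that did not pass the test grey; black bars are list medians, and the band spans the 5th to the 95th percentile of all genes. The glutathione S-transferase median stands at 0.67 and that of the fat body markers at -1.31.

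Falls were fewer, and the RpS3* libraries differed more in them. Of the 511 genes that fell, 77.1% were lower in RpS3* replicate 2 than in replicate 1, against 56.1% of all genes tested. ImpE2, a gene induced by the moulting hormone ecdysone, was at 1124 and 444 FPKM in RpS3* discs, against 1620, 2508 and 3091 FPKM in WT (-1.71, SE 0.30, limma adjusted p = 0.00324). Of 16 ecdysone response genes tested (19 in the files), 3 fell (18.8%) and 2 rose (12.5%), with a median of -0.30. Over all genes tested 6.33% fell and 16.5% rose. The number of ecdysone genes that fell changed with the RpS3* library left out. The nuclear receptor gene Eip78C was at 15.9 and 6.95 FPKM in RpS3* discs, against 14.2, 21.1 and 27.2 FPKM in WT (-0.87, limma adjusted p = 0.0643), so that replicate 1 overlapped WT, and its call was lost without replicate 2. Among the rises, ImpL2, which encodes a secreted antagonist of insulin signalling, was at 96.3 and 81.9 FPKM in RpS3* discs, against 34.3, 43.8 and 57.6 FPKM in WT (0.99, limma adjusted p = 0.00521). The serpin gene Spn100A was at 40.1 and 7.06 FPKM in RpS3* discs, against 43.9, 117 and 178 FPKM in WT (-2.42, SE 0.67, limma adjusted p = 0.0457), and the sulfotransferase gene St2 was at 17.3 and 5.54 FPKM in RpS3* discs, against 40.0, 53.8 and 96.2 FPKM in WT (-2.37, limma adjusted p = 0.00354). Both were below every WT library in both replicates, and the call of Spn100A was lost without replicate 2 (limma adjusted p = 0.432).

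Proneural genes promote the fate of sensory organ precursors in the disc, and effectors of Notch restrict it. Of 18 tested (21 in the files), 9 fell and 0 rose, with a median of -0.29. The zinc-finger gene sens was at 3.24 and 1.40 FPKM in RpS3* discs, against 3.87, 4.76 and 5.12 FPKM in WT (-0.83, limma adjusted p = 0.00771). E(spl)m7-HLH, a Notch target that represses neural fate, was at 33.0 and 28.7 FPKM in RpS3* discs, against 43.5, 47.4 and 55.2 FPKM in WT (-0.64, limma adjusted p = 0.00111). Neither of these genes overlapped between the groups, while in the list 6 of 18 lay below every WT library in both replicates. Of the 18, 4 fell without RpS3* replicate 1 and 2 without replicate 2. Of 22 heat shock genes tested (27 in the files), 3 fell, all of them genes of small heat shock proteins, and 0 fell without RpS3* replicate 2. Hsp23 was at 2146 and 1510 FPKM in RpS3* discs, against 2486, 3829 and 4518 FPKM in WT (-1.04, limma adjusted p = 0.00648).

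Markers of tissues that may adhere to dissected discs were examined in the same libraries. Of 7 fat body markers tested (8 in the files), 3 fell and 0 rose, with a median of -1.31, and their summed level was 23.8 and 18.3 FPKM in RpS3* libraries, against 35.9, 90.2 and 322 FPKM in WT. The larval storage protein receptor gene Fbp1 was at 3.91 and 1.85 FPKM in RpS3* discs, against 6.35, 28.9 and 104 FPKM in WT (-2.86, SE 0.93, limma adjusted p = 0.0766). Fat body transcripts were thus low in both RpS3* libraries and uneven across WT, and their part in the other falls was not tested. With either RpS3* library left out, 0 fat body markers fell. Of 6 myoblast markers tested, 2 fell (Him by 1.02, zfh1 by 0.57), and the summed level was 65.3 and 60.5 FPKM in RpS3* libraries, against 65.8, 84.7 and 92.1 FPKM in WT. Haemocyte markers summed to 24.4 and 43.5 FPKM in RpS3* libraries, against 19.2, 28.9 and 45.0 FPKM in WT. Of 5 tested, 1 fell (eater, -0.96), and its call was lost with either RpS3* library left out. Larval muscle markers summed to 162 and 139 FPKM in RpS3* libraries, against 127, 154 and 213 FPKM in WT. Of 8 tested, 1 rose (Mlc2, 1.07) and 0 fell. Of 3 tracheal markers tested, 1 rose (serp by 0.67) and 0 fell. Their summed level was 344 and 396 FPKM in RpS3* libraries, against 249, 281 and 341 FPKM in WT. Both RpS3* libraries lay above every WT library, replicate 1 narrowly. Salivary gland markers summed to 4.22 and 29.96 FPKM in RpS3* libraries, against 0.0914, 7.84 and 45.5 FPKM in WT. Neuron and glia markers summed to 7.24 and 7.43 FPKM in RpS3* libraries, against 6.17, 11.4 and 13.8 FPKM in WT. Only elav was tested, and it fell (-0.52), a call lost with either RpS3* library left out. Eye disc markers summed to 26.2 and 36.0 FPKM in RpS3* libraries, against 8.17, 9.87 and 10.7 FPKM in WT. Of 2 tested, 1 rose (toy) and 0 fell. No marker of these lists was at 0 in all 10 libraries.

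**Figure D4:**
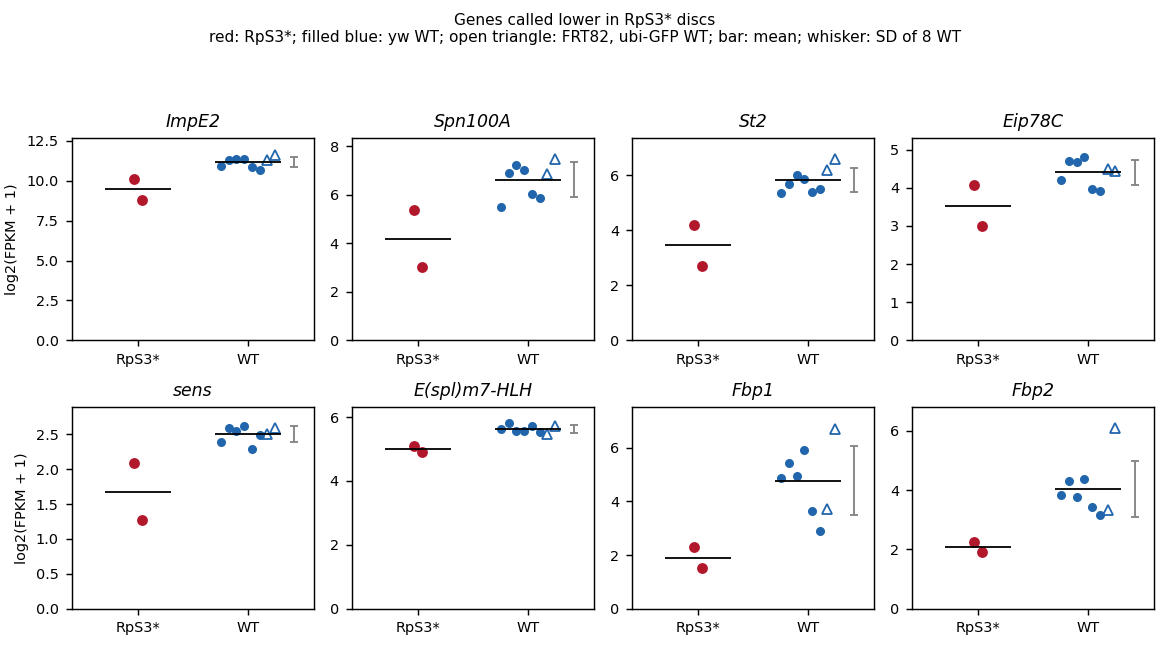
Level of 8 genes that fell, in every library on the log2(FPKM + 1) scale (y axis), with RpS3* in red on the left and WT in blue on the right, filled for yw and open for FRT82, ubi-GFP; bars are means and whiskers the SD of 8 WT libraries. RpS3* replicate 2 is the lower one for all 8 genes, and Eip78C is the gene in which replicate 1 reaches into the WT range.

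Beyond these lists, the 15 largest rises among separated genes with a mean of at least 5 FPKM in 1 group were led by GstE6 and by CG15784, at 303 and 362 FPKM in RpS3* discs, against 10.7, 12.2 and 20.9 FPKM in WT (4.60). Snap25, which encodes a SNARE protein of synaptic vesicle release, was at 13.1 and 18.4 FPKM in RpS3* discs, against 0.173, 0.284 and 0.481 FPKM in WT (3.67, limma adjusted p = 8.23e-09). The Pax6 gene toy, known for its role in eye development, was at 18.6 and 27.8 FPKM in RpS3* discs, against 0.771, 1.48 and 2.85 FPKM in WT (3.28). Arc2, a homologue of the mammalian gene Arc, was at 68.0 and 64.6 FPKM in RpS3* discs, against 4.64, 5.98 and 9.12 FPKM in WT (3.21), and the related Arc1 rose by 2.53. The rest of the 15 were CG14695, FBgn0038347, Cyp6d2, Ilp8, CG18063, CG45603, Gr64a, CG12224, CG32625 and Gr64f, with log2 fold changes of 3.26 to 4.59. Snap25, CG14695, FBgn0038347, Ilp8, CG18063, CG45603 and CG32625 entered the test through the RpS3* libraries. Gr64a lost its call with either RpS3* library left out. It also differed between the WT stocks, with 7.31 and 7.80 FPKM in FRT82, ubi-GFP discs and 0 to 0.173 FPKM in yw discs. Over all genes, 65 of 7975 tested (0.815%) differed between the stocks. Among abundant transcripts, Cul2, a cullin of ubiquitin ligases, was at 321 and 390 FPKM in RpS3* discs, against 37.2, 43.5 and 47.6 FPKM in WT (3.01, SE 0.11, limma adjusted p = 2.55e-09), and the polarity gene baz, which overlaps TTLL1A, rose by 2.97. The largest falls besides those above were of Obp99b (-2.20), Cpr78E (-2.10) and Fbp2 (-1.96). Obp99b and Fbp2 lost the call with either RpS3* library left out, and Cpr78E lost it without replicate 2. WT6 was the highest WT library for each, at 82.7, 66.6 and 67.6 FPKM for Obp99b, Cpr78E and Fbp2.

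RpS3* was then set against each other mutant directly, in fits that included the same 8 WT libraries. Against RpS3[Plac92], the other allele of the same gene, 50 of 8362 genes (0.598%) differed, 28 higher (0.335%) and 22 lower (0.263%) in RpS3*. Against RpS15 4113 genes (49.2%) differed, 2332 higher (27.9%) and 1781 lower (21.3%) in RpS3*, and against mahj 1652 genes (19.8%) differed, 1146 higher (13.7%) and 506 lower (6.05%). After rescaling by the median of ratios, the differences from RpS15 were 2141 higher and 2146 lower, and those from mahj 746 higher and 774 lower. RpS3 was at 1262 and 1296 FPKM in RpS3* discs and at a mean of 1329 FPKM in RpS3[Plac92] discs, a log2 difference of -0.05. When either RpS3* library was left out, 17 to 20 genes differed from RpS3[Plac92], 2319 to 3013 from RpS15 and 387 to 418 from mahj.

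The 50 genes that differed between RpS3* and RpS3[Plac92] discs included 5 of the 7 delta glutathione S-transferase genes tested against WT, with GstD10 beside those given here. The RpS3[Plac92] discs also carried ubi-GFP, so allele and other differences of genotype or stock cannot be told apart. GstD1 was at 1957 and 1965 FPKM in RpS3*, against 1206 and 1204 FPKM in RpS3[Plac92] (0.70, SE 0.15, limma adjusted p = 0.0716). GstD3 was at 295 and 315 FPKM in RpS3*, against 110 and 83.5 FPKM in RpS3[Plac92] (1.66, SE 0.32, limma adjusted p = 0.0328). GstD4 (2.09) and GstD5 (1.38) were also higher in RpS3*, and both lay in or below their WT range in RpS3[Plac92]. Cul2 was at 321 and 390 FPKM in RpS3*, 209 and 150 FPKM in RpS3[Plac92] and 37.2 to 47.6 FPKM in WT. Cul2 was thus higher in RpS3* than in RpS3[Plac92] discs (0.99). CG18063 was at 15.5 and 21.1 FPKM in RpS3*, against 0.0487 and 0 FPKM in RpS3[Plac92], and was also on in mahj, at 39.6 and 29.2 FPKM. The FGF ligand gene bnl, which guides tracheal branches, was at 0.939 and 0.897 FPKM in RpS3*, 11.7 and 7.496 FPKM in RpS3[Plac92] and 1.06 to 2.00 FPKM in WT (-2.43 for RpS3* against RpS3[Plac92], SE 0.20, limma adjusted p = 2.35e-06). The largest difference between these discs was that of CG14072, at 0 and 0.122 FPKM in RpS3*, against 51.9 and 39.8 FPKM in RpS3[Plac92].

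**Figure D5:**
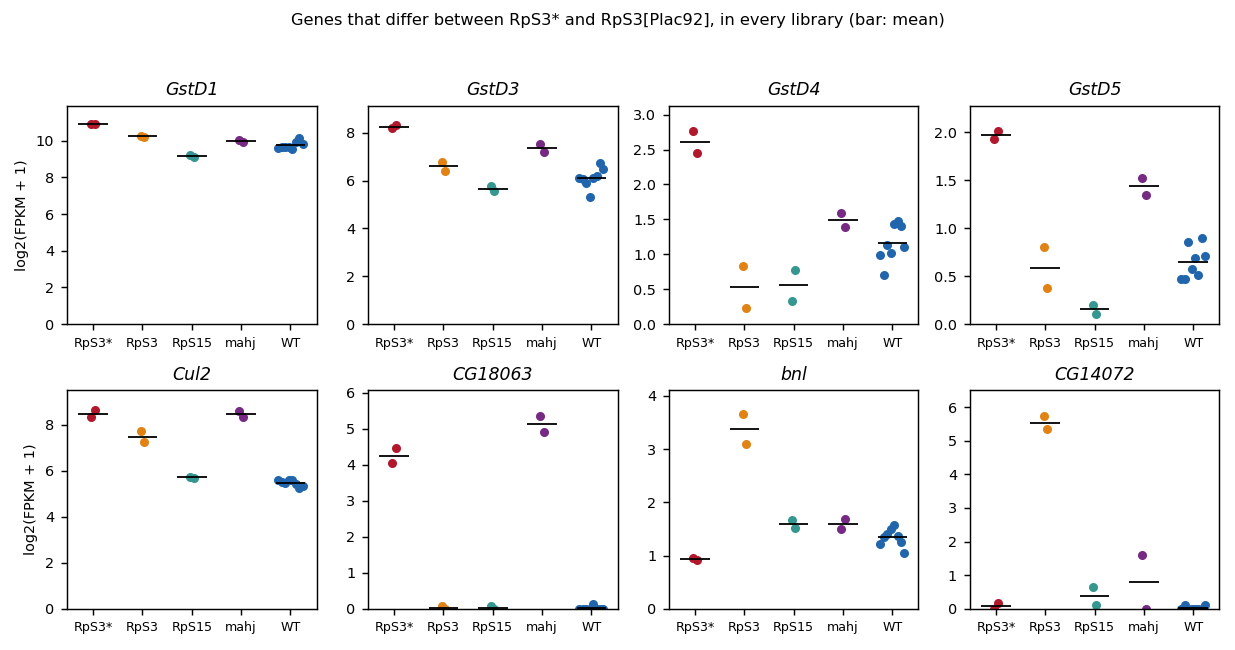
Level of 8 genes that differed between RpS3* and RpS3[Plac92] discs, in every library on the log2(FPKM + 1) scale (y axis). RpS3*, RpS3[Plac92], RpS15, mahj and WT stand from left to right, and bars are means. GstD1, GstD3, GstD4, GstD5 and Cul2 are higher in RpS3* than in RpS3[Plac92], and bnl and CG14072 are lower.

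Xrp1, Irbp18 and GstE6 were also high in RpS3[Plac92] and mahj, and low in RpS15. In RpS15, Xrp1 and Irbp18 lay below every WT library, while GstE6 against WT did not pass the test (-0.42, limma adjusted p = 0.238). Xrp1 was at 511 and 538 FPKM in RpS3*, 492 and 446 FPKM in RpS3[Plac92], 462 and 406 FPKM in mahj, 57.0 and 61.5 FPKM in RpS15 and 150 to 207 FPKM in WT. The difference from RpS15 was 3.13 (limma adjusted p = 1.92e-10), and those from RpS3[Plac92] (0.16) and mahj (0.28) did not pass the test. Irbp18 was at 112 and 117 FPKM in RpS3* and at 20.3 and 22.5 FPKM in RpS15, a difference of 2.36. GstE6 was at 203 and 236 FPKM in RpS3*, against 1.26 and 1.79 FPKM in RpS15, a difference of 6.45. In mahj GstE6 was at 112 and 74.8 FPKM, lower than in RpS3* (difference 1.25, limma adjusted p = 0.0169). The cytochrome gene Cyp4p2 was at 155 and 206 FPKM in RpS3*, 0.177 and 0.144 FPKM in RpS15, 0.408 and 0.328 FPKM in mahj and 53.5 to 159 FPKM in WT, so here RpS15 and mahj lay apart from the rest. Both of these carried FRT42D, whereas RpS3* carried FRT82B. In the comparisons with RpS15 and mahj, mutation and other differences of genotype or stock thus cannot be told apart. In the comparisons of the other mutants with these same WT libraries, 1498 of 8053 genes (18.6%) changed in RpS3[Plac92], 1715 of 8134 (21.1%) in RpS15 and 1306 of 8145 (16%) in mahj.

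The genes around RpS3 changed about as often as genes elsewhere. Within 100 kb of it, 1 of 8 tested genes rose and 1 fell. ATPsynCF6, a subunit gene of ATP synthase 2748 bp from RpS3, was at a mean of 366 FPKM in RpS3* and 259 FPKM in WT (0.51, limma adjusted p = 0.0526), while its neighbour Sec13, 281 bp away, did not pass the test. CG4374, 48477 bp away, fell by 0.98 (limma adjusted p = 0.0054). Within 1000 kb 33 of 189 genes rose and 9 fell, beside 337 and 119 of 1932 on the whole arm 3R.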

How the data were processed

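RNA from whole wing discs was sequenced by the authors (TruSeq libraries from total RNA, 1 run each for RpS3* and for 6 of the WT libraries, 2 pooled runs for WT1 and WT2; the column of WT1 names run 1 only). The authors' processing gave 1 FPKM value for each gene and library, and these were used as deposited. The unit was read from the values and RPKM would look the same. In genes with a single annotated transcript, 97.4% to 97.8% of low values in the RpS3* and WT libraries were whole multiples of the value of 1 read (tolerance 0.02, between 0.5 and 50 reads), which gave the implied depths. The submitters' processing notes name BWA 0.6.2 and dm3 without their role. The counting tool, the normalization steps and whether strand was used are not given in the sources used here. For gene positions and overlaps, BDGP6.54 was used, in which 13661 of the 13955 gene identifiers were found.

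Genes that reached 1 FPKM in 2 or more libraries of a fit were tested with limma 3.58.1 (statmod 1.5.0, R 4.3.3) on log2(FPKM + 1), with a variance trend and robust moderation. Calls needed a Benjamini-Hochberg adjusted p under 0.1 over all genes tested. RpS3* was compared with WT in a fit of these 10 libraries, and with each other mutant in a fit of 16 libraries. The WT samples are not paired with RpS3* by the labels.

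The members and gene lists were chosen with earlier results of these data known. Genes named were RpS3, the 15 largest rises and falls among separated genes with a mean of at least 5 FPKM in a group, up to 4 members of each list with the largest changes and members whose role needed naming, the 5 largest differences from each other mutant, and the changed genes nearest RpS3. The iron-sulphur, cuticle, Gr64, mitochondrial genome, delta and epsilon lists were chosen after the values were seen. Of 163 named genes, 52 overlap another annotated gene, whose reads may not be separable. Alternatives were other thresholds, pseudocounts, filters, WT libraries, scalings, a length correction, replicate blocks and leaving out each library.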

Additional observations from a re-analysis of the deposited data

Results flagged for a closer look

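Among 163 genes, 15 had a WT library that stood apart from the other 7, and chance alone marks about 1 in 20 groups. WT6 was the high library for CG15784 (20.9 FPKM), Cpr78E (66.6 FPKM), Fbp2 (67.6 FPKM) and RpS27A (5527 FPKM), and the low one for cnc (18.25 FPKM). WT7 was the high library for Men (12.95 FPKM), PCNA (447.6 FPKM) and nclb (88.9 FPKM), and the low one for elav (5.68 FPKM). The high library was WT4 for scaf (26.2 FPKM), WT5 for CG18063 (0.1015 FPKM) and RabX2 (0.0819 FPKM), WT2 for CG11786 (0.419 FPKM), and WT8 for CG45603 (0.687 FPKM) and FBgn0038347 (0.466 FPKM). For the genes under 1 FPKM these values rest on few reads.

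The direct test of RpS3* against RpS3[Plac92] discs marked genes whose log2 difference, RpS3* minus RpS3[Plac92], passed the threshold. It was -5.45 for CG14072, -3.49 for Cyp6a17, -2.53 for Proc-R and -2.43 for bnl, and 4.22 for CG18063, 2.31 for CG11786, 2.06 for Dic61B, 1.98 for blanks, 1.92 for RabX2 and 1.17 for c-cup. Of the delta glutathione S-transferases, those marked had 0.70 for GstD1, 1.66 for GstD3, 2.09 for GstD4, 1.38 for GstD5 and 0.79 for GstD10, and Cul2 had 0.99. Cyp6a17 was at 0 and 0 FPKM in RpS3* and at 9.93 and 10.6 FPKM in RpS3[Plac92], but its WT libraries also differed, with 4.99 FPKM in WT4 and 0 to 0.0373 FPKM in the others.

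Of the differences from RpS15, RpS3* minus RpS15, the largest were 7.28 for Cyp4p2, -6.64 for DAT, 6.537 for ppk13, 6.45 for GstE6 and 6.37 for CG33509, with 3.13 for Xrp1 and 2.36 for Irbp18. The dopamine transporter gene DAT was at 0 and 0.0419 FPKM in RpS3* and at 97.3 and 103.9 FPKM in RpS15, against 0 to 0.380 FPKM in WT. Of the differences from mahj, RpS3* minus mahj, the largest were 7.04 for Cyp4p2, 6.66 for ppk13, 6.31 for CG33509, 5.17 for Cyp4p1 and -5.10 for CG31206. Cyp4p2, ppk13 and CG33509 were near 0 in both RpS15 and mahj, and CG33509 was at 77.7 and 107 FPKM in RpS3* and 6.67 to 21.0 FPKM in WT. RpS15 and mahj discs carried FRT42D and RpS3* discs FRT82B, so mutation and stock cannot be told apart here.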

How the results depend on the processing

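No named gene that passed the test changed direction under any alternative, whereas RpS15, cnc and vg, which had not passed it, changed sign under some. Of 3854 values of named genes under alternatives, 3518 kept their side of the threshold, 327 lost it and 9 passed it newly. Against WT, an adjusted p under 0.05 gave 1100 genes (829 higher, 271 lower), WT1 and WT2 alone gave 4094 (2883, 1211), and WT6 and WT7 left out together gave 3693 (2524, 1169). Leaving out 1 library gave 304 to 2904 genes (251 to 2021 higher, 53 to 883 lower), the lowest without RpS3* replicate 2 and the highest without WT7. The all-library fit gave 2686. Of the 157 named genes that changed, 61 kept the call whichever RpS3* library was left out, among them RpS3, Xrp1, Irbp18, GstE6, GstD1, MRP, Gadd45, Socs36E, agt, Ku80 and ImpE2. In each of these fits 17 fell below the filter, Ilp8 and upd3 among them; the lone RpS3* library is there assumed to vary like WT. The cause of these shifts was not tested.

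Against RpS3[Plac92], the 50 genes became 33 at an adjusted p under 0.05, 472 in a fit of these groups alone and 17 to 20 with an RpS3* library left out. Against RpS15, leaving one out gave 2319 to 3013. Against mahj the values were 926, 3348 and 387 to 418. Differences between replicates 1 and 2 correlated at -0.228 to -0.134 between RpS3* and the other groups, with WT1 and WT2 used for WT. This cannot show whether samples were paired, since pairs with crossed numbers would also give negative values. With a replicate block and WT1 and WT2 alone, 3762 genes changed against WT (2681 higher, 1081 lower), and with a block 277 differed from RpS3[Plac92]. A crossed block, added after the data were seen, gave 1073 against RpS3[Plac92] and 4186 against mahj. With 2 RpS3* libraries, the spread within RpS3* rests on a single difference, and a gene at 1 FPKM rests on few reads.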

Other observations

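Genes for building iron-sulphur clusters, the cofactors of many mitochondrial, DNA repair and ribosome recycling enzymes, were gathered after the values were seen. Of 15 tested, 10 rose and 0 fell, with a median of 0.58 beside 0.07 for all genes. The cysteine desulphurase gene Nfs1 was at 83.2 and 86.9 FPKM in RpS3* discs, against 21.8, 26.3 and 32.7 FPKM in WT (lowest, median and highest; log2 fold change 1.64, limma adjusted p = 4.05e-06). IscU, the scaffold gene, was at 153 and 158 FPKM in RpS3* discs, against 46.6, 52.9 and 61.5 FPKM in WT (limma adjusted p = 1e-06). Both were fully separated. Nubp2, of the cytosolic assembly machinery, rose by 1.03. The rise of CIAPIN1 (1.13) cannot be told apart from that of the overlapping yellow-c. Without RpS3* replicate 1 the list had 8 rises, and without replicate 2 it had 7.

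Cuticle protein genes lay on both sides, with 15 of 37 tested rising (122 in the files, 8 of the rises having entered through the RpS3* libraries) and 5 falling. With RpS3* replicate 2 left out 1 of them rose. All 6 gustatory receptor genes of the Gr64 cluster rose, with a summed level of 52.7 and 65.4 FPKM in RpS3* libraries, against 0.0674, 0.446 and 16.1 FPKM in WT, where the high values were those of the FRT82, ubi-GFP stock. The rise was not particular to RpS3*. Gr64c, Gr64e and Gr64f also rose against WT in RpS3[Plac92], RpS15 and mahj, and Gr64a in RpS3[Plac92] and mahj. For these genes no difference between RpS3* and another mutant passed the test.

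There were 12 genes under 0.5 FPKM in every WT library and at 2 FPKM or more in both RpS3* libraries, among them CG14695, Ilp8, CG18063, Snap25, c-cup, RabX2 and blanks. The share of rises was 15.3% to 17.4% on the arms X, 2L, 2R, 3L and 3R. On chromosome 4, 3 of 63 genes rose and 6 fell, with a median of -0.23.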
